A study of Homo sapiens with 5 samples.

Results

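The genes described here are the WNT ligands, the Frizzled (FZD) receptors, their co-receptors LRP5 and LRP6, and the secreted antagonists of the DKK and SFRP families, chosen by gene symbol alone. Of the 63677 genes listed, 40 carried such a symbol and 39 of these had a value, namely 19 WNT, 10 FZD, 4 DKK and 4 SFRP genes and 2 LRP genes. The second entry for FZD9 was empty. They are 39 of 57905 genes with a value in the series.

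RNA was sequenced from cells of the established human line SVG-10B1, astroglial cells of fetal origin that carry SV40 T antigen. The IDH1 R132H/WT samples were 1 library of a clone numbered 2 and 2 libraries of a clone numbered 6, in which 1 allele of IDH1 carries the R132H substitution and the other is wild type. The 2 wild-type libraries came from a line to which the labels give the clone number 1. The substituted enzyme makes 2-hydroxyglutarate, which inhibits dioxygenases that use 2-oxoglutarate. All cells grew in serum-containing medium. With 2 mutant clones and 1 wild-type line, the edit and clonal differences cannot be told apart. Nothing in the labels says that replicates were grown separately, and p-values therefore cover only the spread between these libraries, which may be technical.

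WNT proteins are lipid-modified ligands that bind Frizzled receptors. With LRP5 or LRP6 as co-receptor they stabilise beta-catenin, which acts with TCF and LEF factors on target genes, and with other co-receptors such as ROR1 and ROR2 they act on cell polarity and movement without beta-catenin. SFRP proteins bind the ligands outside the cell, and DKK1 blocks LRP5 and LRP6. In the developing brain these signals pattern the neural tube and control the expansion of progenitors.

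Reads assigned to genes came to 13572114 to 16559077 per mutant library and to 17603317 and 21881726 in the wild-type libraries. Ribosomal RNA took 0.42, 9.79 and 0.63% of them in clone 2 and in clone 6 replicates 1 and 2, against 7.23 and 2.24% in wild-type replicates 1 and 2, so its share did not follow the genotype. IDH1 had 111, 105 and 108 CPM (counts scaled to library depth) in clone 2 and clone 6 replicates 1 and 2, against 119 and 118 CPM in wild type (log2 fold change -0.14, SE 0.0799, adjusted p = 0.285), and gene counts do not show the substitution. The library of clone 2 and the one labelled clone 6 replicate 1 were closer to each other than the libraries of either labelled pair, with a coefficient of variation of 5.94% beyond counting error, against 21.1% for the clone 6 pair and 9.65% for the wild-type pair. Over the WNT pathway genes tested the same 2 libraries differed by a median of 0.15 on the log2 scale and clone 6 replicates 1 and 2 by 0.31. Of 12 astrocyte markers, AQP4 was at 0 reads in every library, S100B had 1 read in clone 2 and 0 elsewhere, and GFAP had 5 to 8 reads in the mutant and 7 and 9 in the wild-type libraries. Of the same list, the gap junction gene GJA1 had 353 to 450 CPM in mutant and 156 and 168 CPM in wild-type libraries. SLC1A3, a glutamate transporter gene, had 6.90 to 9.85 CPM in mutant and 7.72 and 8.09 CPM in wild-type libraries. CLU, GLUL and SOX9 were also expressed in every library, at 33.9 to 130, 32 to 73.3 and 4.49 to 8.32 CPM. NFIA had 0.499 to 0.844 CPM in the mutant libraries, against 5 and 3.42 CPM in wild type. Reads were few for ALDOC (3 to 14 per library), SLC1A2 (2 to 7) and ALDH1L1 (0 to 6).

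Of the 39 genes, 22 passed the filter on low counts and were tested. Adjusted p-values are Benjamini-Hochberg values over 15500 genes from edgeR's quasi-likelihood test of the 3 mutant against the 2 wild-type libraries. At an adjusted p below 0.05, 8 of the 22 (36.4%) were called, 4 higher and 4 lower, where 18.4% of all genes tested were called (8.27% higher and 10.2% lower). At an unadjusted p below 0.05 the share was 10 of 22 (45.5%), where that of all genes tested was 34.1%. WNT5A, LRP5, DKK1 and DKK3 fell in the mutant clones, and WNT7B, FZD3, FZD6 and SFRP4 rose. Their identifiers are ENSG00000114251 (WNT5A, chromosome 3), ENSG00000162337 (LRP5, 11), ENSG00000107984 (DKK1, 10), ENSG00000050165 (DKK3, 11), ENSG00000188064 (WNT7B, 22), ENSG00000104290 (FZD3, 8), ENSG00000164930 (FZD6, 8) and ENSG00000106483 (SFRP4, 7). The median log2 fold change of the 22 was 0.07, against 0.022 over all genes tested. Mutant and wild-type libraries were fully apart, without overlap, for 12 of the 22 (54.5%), 7 higher and 5 lower, which is close to the 52.7% of all genes tested (26.9% higher and 25.8% lower). Fewer cells that express a gene and less RNA per cell cannot be told apart in these data.

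**Figure D1:**
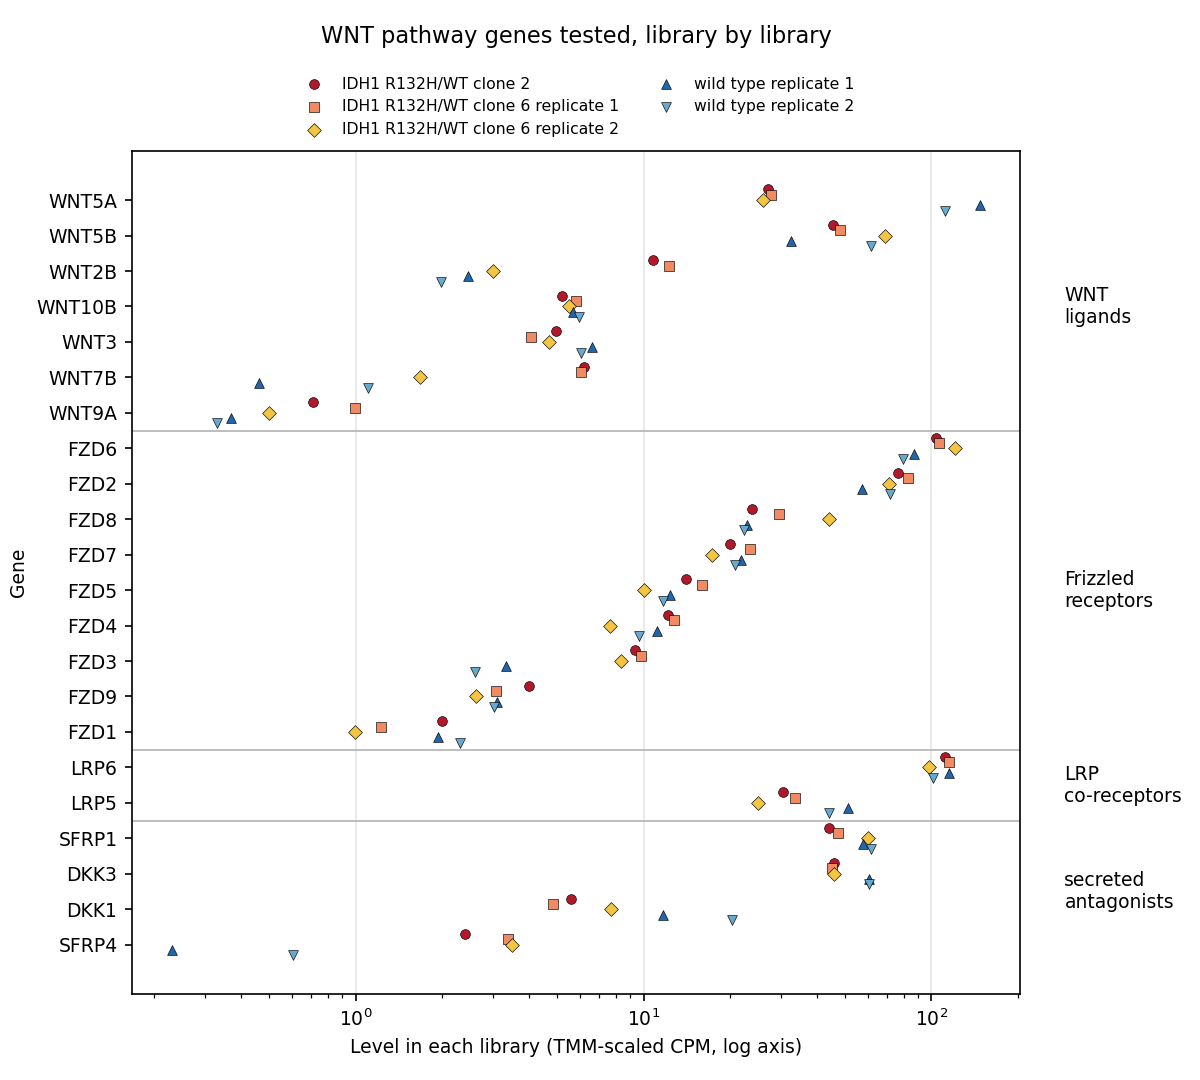
TMM-scaled CPM on a log axis for the 22 genes tested, 1 point per library (clone 2, clone 6 replicates 1 and 2, wild-type replicates 1 and 2), grouped by role. WNT5A lies at 25.9 to 27.8 CPM in the mutant libraries and at 111 and 147 CPM in wild type, and WNT2B is high in clone 2 and clone 6 replicate 1 only.

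**Figure D2:**
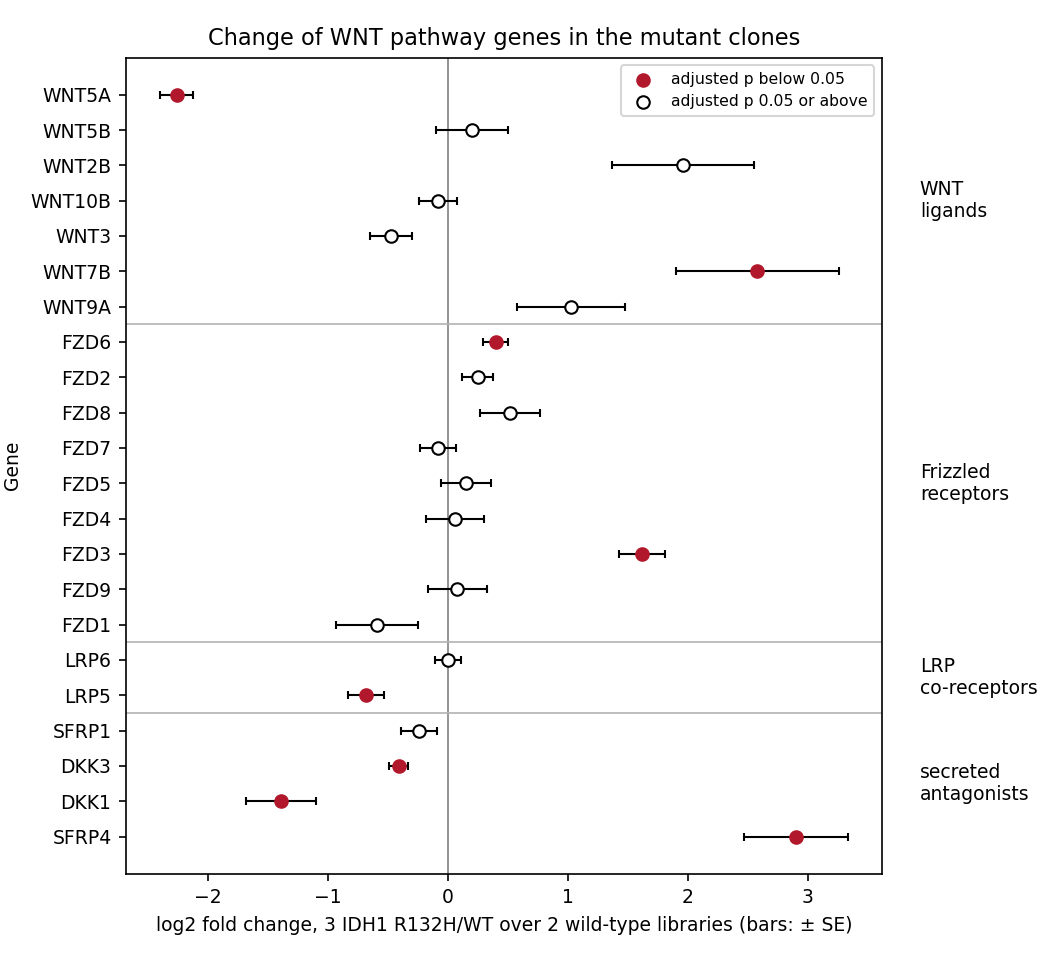
Log2 fold changes of the 22 genes, 3 mutant over 2 wild-type libraries, with bars of ± SE and filled points for an adjusted p below 0.05. SFRP4 (2.90) and WNT7B (2.58) rose most among these genes and WNT5A (-2.26) fell most.

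The start regions of the called genes are given first, as reference for the level changes that follow. RefSeq sequence is shown for 4 of the 8 called genes, WNT5A (with 2 start sites), DKK1, LRP5 and SFRP4. Each is the 250 bases before a transcription start in GRCh38.p14, in the gene's own direction, with every CG in capitals, since these are the positions where human DNA is methylated. Methylation was not measured in these samples.
WNT5A start region 1 (chr3:55487307-55487556, minus strand): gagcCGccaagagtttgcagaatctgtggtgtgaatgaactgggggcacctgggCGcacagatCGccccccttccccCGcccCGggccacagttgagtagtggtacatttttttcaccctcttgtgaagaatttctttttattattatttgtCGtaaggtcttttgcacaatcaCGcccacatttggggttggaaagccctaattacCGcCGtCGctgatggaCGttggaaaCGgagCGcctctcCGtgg
WNT5A start region 2 (chr3:55481399-55481648, minus strand): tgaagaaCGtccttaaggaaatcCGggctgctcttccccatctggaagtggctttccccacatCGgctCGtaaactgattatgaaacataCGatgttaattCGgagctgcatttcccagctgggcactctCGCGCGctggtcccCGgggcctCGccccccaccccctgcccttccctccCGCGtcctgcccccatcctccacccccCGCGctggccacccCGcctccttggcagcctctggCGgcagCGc
DKK1 (chr10:52314031-52314280, plus strand): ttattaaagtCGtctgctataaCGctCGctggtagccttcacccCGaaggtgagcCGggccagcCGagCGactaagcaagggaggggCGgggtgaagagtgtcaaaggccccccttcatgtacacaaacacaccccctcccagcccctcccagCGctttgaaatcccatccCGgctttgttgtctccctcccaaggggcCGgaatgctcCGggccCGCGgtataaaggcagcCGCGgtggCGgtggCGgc
LRP5 (chr11:68312341-68312590, plus strand): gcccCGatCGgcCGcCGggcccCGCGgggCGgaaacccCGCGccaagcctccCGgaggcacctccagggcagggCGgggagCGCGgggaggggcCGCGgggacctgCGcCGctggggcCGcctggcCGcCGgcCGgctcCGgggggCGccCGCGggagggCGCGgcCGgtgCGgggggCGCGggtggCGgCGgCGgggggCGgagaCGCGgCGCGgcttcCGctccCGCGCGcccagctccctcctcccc
SFRP4 (chr7:37916818-37917067, minus strand): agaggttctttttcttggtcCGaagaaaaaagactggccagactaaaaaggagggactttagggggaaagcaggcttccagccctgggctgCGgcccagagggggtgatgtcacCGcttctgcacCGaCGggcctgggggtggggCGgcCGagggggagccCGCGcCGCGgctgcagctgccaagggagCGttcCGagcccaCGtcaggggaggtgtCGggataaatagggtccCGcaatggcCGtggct

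These windows held 14 and 18 CG in WNT5A, 18 in DKK1, 43 in LRP5 and 17 in SFRP4, where the median over 35116 such windows was 11. The genes that fell and the gene that rose thus both lie above the median, and 99% of all windows hold fewer CG than that of LRP5. The 5 motifs searched on both strands were CTTTGAT (bound by TCF and LEF factors), TGANTCA (AP-1), the NF-kB motif, GGAATG (TEAD) and TATAAA (the TATA box). Only DKK1 held any, a GGAATG that starts 50 bases before the transcription start and a TATAAA that starts 30 bases before it. Of all windows, 11.9% held GGAATG, 10.7% TATAAA, 6.57% TGANTCA, 2.26% CTTTGAT and 1.73% the NF-kB motif. None of the motifs overlapped another in these windows.

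Among the ligands, WNT5A, which acts mainly without beta-catenin through receptors such as ROR2, had the strongest call. Its level was 27.0, 27.8 and 25.9 CPM in the libraries of clone 2 and clone 6 replicates 1 and 2, against 147 and 111 CPM in wild-type replicates 1 and 2. The mutant libraries were nearly level with each other and far below both wild-type libraries. The mean was 26.9 ± 0.928 CPM (SD, n = 3) in the mutant clones and 129 ± 26 CPM (SD, n = 2) in wild type, a 4.8-fold fall (log2 fold change -2.26, SE 0.135, adjusted p = 0.000389). WNT5A passed the test without any 1 of the 5 libraries, with log2 fold changes of -2.04 to -2.45.

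WNT7B, a ligand of the beta-catenin branch that guides blood vessel growth in the brain, rose but stayed at a low level. Its reads numbered 96, 79 and 27 in the libraries of clone 2 and clone 6 replicates 1 and 2, against 10 and 20 in wild type. In scaled values these were 6.19, 6.06 and 1.68 CPM in the mutant libraries and 0.463 and 1.10 CPM in the wild-type libraries. The genotypes do not overlap, but clone 6 replicate 2 lies nearer to wild type than to the other mutant libraries. The log2 fold change was 2.58 (SE 0.681, adjusted p = 0.0448). This call was lost with wild-type replicate 1 (adjusted p = 0.278) or wild-type replicate 2 (0.139) left out, and without clone 2 (0.101) or clone 6 replicate 1 (0.107), and held without clone 6 replicate 2 (log2 fold change 2.99, adjusted p = 0.000119).

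WNT2B, another ligand of the beta-catenin branch, showed the same split of the mutant libraries. Its level was 10.8, 12.3 and 2.99 CPM in the libraries of clone 2 and clone 6 replicates 1 and 2, against 2.45 and 1.98 CPM in wild type. Clone 6 replicate 2 was thus close to the wild-type libraries, and the gene did not pass the test (log2 fold change 1.96, SE 0.593, adjusted p = 0.0661). Without clone 6 replicate 2 it did (log2 fold change 2.35, adjusted p = 1.74e-05), in a fit whose mutant samples were the 2 nearly identical libraries. It also passed with DESeq2 (adjusted p = 0.00266) and without a filter on low counts (adjusted p = 1.44e-12). Exons of WNT2B share 2661 of their 12561 bases with ST7L on the opposite strand, and without a stated strand setting reads there cannot be assigned. ST7L itself had 364, 273 and 367 reads in clone 2 and clone 6 replicates 1 and 2, against 272 and 223 in wild type. Scaled to depth, these were 23.5, 21 and 22.9 CPM in the mutant libraries, against 12.6 and 12.3 CPM in wild type, and ST7L was called higher (log2 fold change 0.85, adjusted p = 0.00604). The part of ST7L reads in the counts of WNT2B was not tested.

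Of all genes tested, 7.46% were at least 2-fold apart between clone 6 replicate 2 and the mean log2 level of the other mutant libraries. Among the 22 WNT pathway genes these were WNT2B and WNT7B. In the test of clone 6 against clone 2 itself, 0 of the 22 were called by edgeR (0% of all genes tested), 0 had an unadjusted p below 0.05 (0.626% of all genes tested) and DESeq2 called 0. WNT7B had a log2 fold change of -0.70 (SE 0.721) and WNT2B of -0.52 (SE 0.696) in clone 6 over clone 2. That test sets clone 6 replicates that differ from each other against 1 library. Without clone 6 replicate 1 it called WNT2B (log2 fold change -1.86, adjusted p = 0.0141) and FZD8 (0.88, adjusted p = 0.0174), where 5.76% of all genes tested were called. This is 1 library against 1, and its spread comes from the wild-type pair alone.

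WNT5B, the closest relative of WNT5A among these ligands, had 45.4, 48.1 and 68.7 CPM in clone 2 and clone 6 replicates 1 and 2, against 32.5 and 61.9 CPM in wild type. The groups overlap widely (log2 fold change 0.20, SE 0.299, adjusted p = 0.685). Its log2 fold change was -0.19 without wild-type replicate 1. WNT10B was at 5.23 to 5.83 CPM in the mutant and at 5.69 and 5.95 CPM in the wild-type libraries (log2 fold change -0.08, 95% interval -0.59 to 0.43). WNT3 had 4.97, 4.07 and 4.68 CPM in the mutant libraries, against 6.61 and 6.06 CPM in wild type. All mutant values of WNT3 were below both wild-type values, without a call (log2 fold change -0.47, SE 0.174, adjusted p = 0.112). WNT9A was near the detection limit, with 11, 13 and 8 reads in the mutant libraries and 8 and 6 reads in wild type (log2 fold change 1.03, SE 0.450, adjusted p = 0.164).

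The other 12 ligands did not pass the filter. WNT1, WNT3A, WNT7A and WNT8A were at 0 reads in every library, where 3 reads would be 0.187 to 0.230 CPM in the mutant and 0.139 and 0.165 CPM in the wild-type libraries. WNT4 had 5 to 10 reads in the mutant libraries and 7 and 8 in wild type. WNT8B had 3 to 5 reads in the mutant libraries and 2 and 0 in wild type. WNT2, WNT6, WNT9B, WNT10A, WNT11 and WNT16 had 0 to 4 reads in any library. Falls and small rises of these genes could not be detected at this depth.

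To compare levels between genes, CPM were divided by the length of the annotated exons (CPM per kb). Summed over the 19 ligands, this level was 20, 20.9 and 23.6 CPM per kb in clone 2 and clone 6 replicates 1 and 2, against 31.8 and 33.6 CPM per kb in wild type. WNT5A made up 18.2, 18.0 and 14.9% of the sum in these mutant libraries, against 62.7 and 44.5% in wild-type replicates 1 and 2. WNT5B made up 52.7, 53.5 and 67.8% in the mutant libraries, against 23.7 and 42.8% in wild type. The most abundant ligand transcript was therefore WNT5B in each mutant library and WNT5A in wild-type replicate 1. In wild-type replicate 2 WNT5A and WNT5B were nearly equal. The ratio of WNT5A to WNT5B per kb was 0.346, 0.337 and 0.220 in the mutant libraries, against 2.64 and 1.04 in wild-type replicates 1 and 2. WNT7B and WNT2B together stayed minor, at 6.13 and 4.31% in clone 2 and, in clone 6, 5.76 and 4.69% of replicate 1 and 1.41 and 1.01% of replicate 2, against at most 0.649 and 0.614% in wild type.

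**Figure D3:**
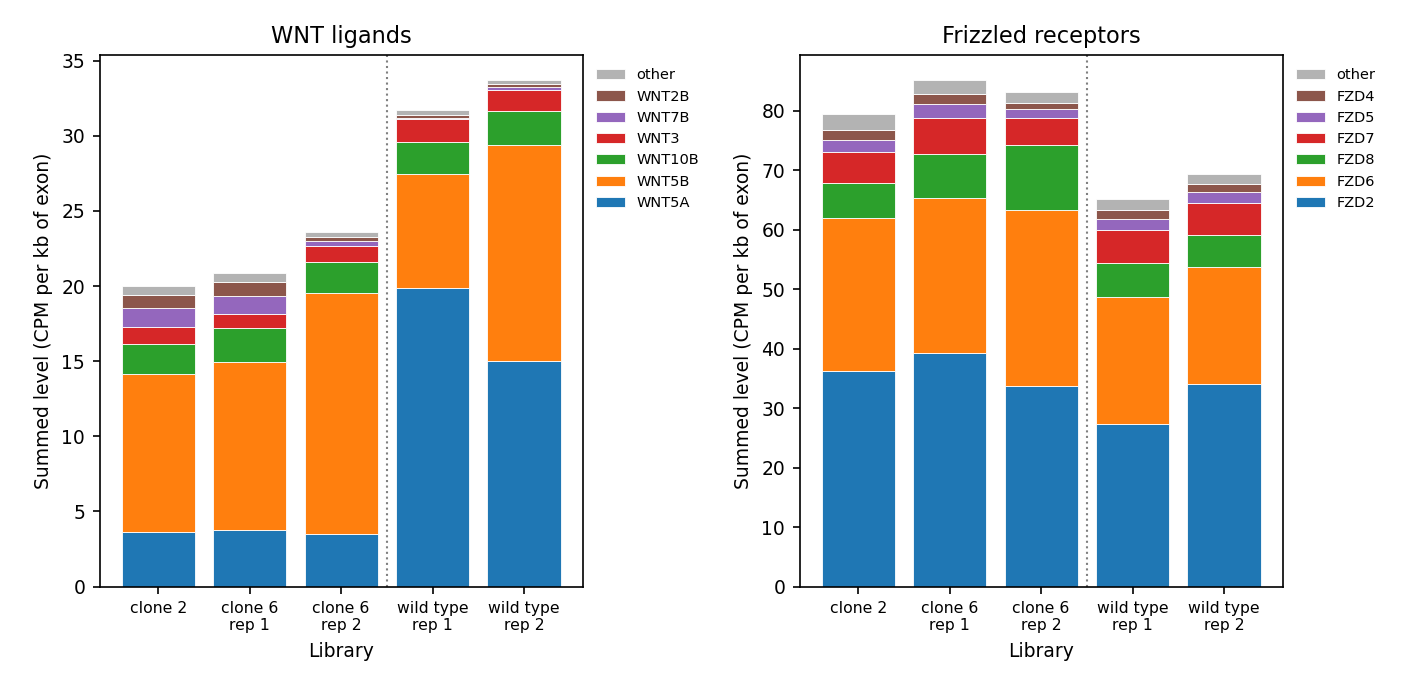
Stacked bars of CPM per kb of annotated exon for WNT ligands (left) and Frizzled receptors (right) in each library, with mutant libraries left of the dotted line and wild-type libraries right of it. The WNT5A part of the ligand bar is 14.9 to 18.2% in the mutant libraries and 44.5 and 62.7% in wild type, while FZD2 and FZD6 form most of every receptor bar.

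Among the Frizzled receptors, FZD3 and FZD6 rose and 0 of the 9 tested fell, where 8.27% of all genes tested rose and 10.2% fell. FZD3, a receptor needed for axon guidance and planar cell polarity, had 9.36, 9.83 and 8.35 CPM in clone 2 and clone 6 replicates 1 and 2, against 3.33 and 2.59 CPM in wild type. The mutant libraries were all well above both wild-type libraries, at 9.18 ± 0.751 CPM (SD, n = 3) against 2.96 ± 0.523 CPM (SD, n = 2), a 3.08-fold rise (log2 fold change 1.62, SE 0.193, adjusted p = 0.00345). Its call held without any 1 of the 5 libraries (adjusted p = 0.000124 to 0.0408). FZD6, which acts with FZD3 in planar polarity, had 104, 106 and 121 CPM in the mutant libraries, against 87.1 and 79.7 CPM in wild type. These groups do not overlap, but the rise was small (log2 fold change 0.40, SE 0.104, adjusted p = 0.0417). FZD6 was not called with wild-type replicate 1 (adjusted p = 0.174) or wild-type replicate 2 (0.261) left out, nor without clone 2 (0.0864) or clone 6 replicate 1 (0.0900).

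FZD8, a receptor of the beta-catenin branch, had 23.8, 29.5 and 43.9 CPM in clone 2 and clone 6 replicates 1 and 2, against 22.9 and 22.3 CPM in wild type. It was highest in clone 6 replicate 2 and barely above wild type in clone 2 (log2 fold change 0.52, SE 0.252, adjusted p = 0.203, and 0.0173 without a filter on low counts). FZD2 had 76.6, 83.0 and 71.3 CPM in the mutant libraries, against 57.6 and 72.0 CPM in wild type, with overlapping groups (log2 fold change 0.25, 95% interval -0.15 to 0.65). FZD7 had 17.3 to 23.5 CPM in the mutant libraries and 21.8 and 20.8 CPM in wild type (log2 fold change -0.08, 95% interval -0.57 to 0.41). FZD1, FZD4, FZD5 and FZD9 did not pass the test either, with adjusted p-values of 0.282, 0.882, 0.651 and 0.860. FZD5 had 14.1, 16 and 10.0 CPM in clone 2 and clone 6 replicates 1 and 2, against 12.4 and 11.7 CPM in wild type (95% interval of the log2 fold change -0.52 to 0.82). FZD4 had 12.2, 12.8 and 7.67 CPM in the mutant libraries, against 11.1 and 9.64 CPM in wild type (95% interval -0.70 to 0.82). In both genes clone 6 replicate 2 was below wild type and the other mutant libraries above it. FZD9 had 4.00, 3.07 and 2.62 CPM in the mutant libraries, against 3.10 and 3.03 CPM in wild type. FZD1 had 2.00, 1.23 and 0.998 CPM in the mutant libraries, against 1.94 and 2.31 CPM in wild type. Exons of FZD4 share 1399 of their 7383 bases with the more abundant PRSS23 on the opposite strand, so its counts are uncertain. FZD10 was at 0 reads in every library.

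Per kb of exon, the receptors summed to 79.4, 85.1 and 83.3 CPM per kb in clone 2 and clone 6 replicates 1 and 2, against 65.2 and 69.5 CPM per kb in wild type. FZD2 made up 45.7, 46.2 and 40.5% of this in the mutant libraries and 41.8 and 49.1% in wild type. FZD6 made up 32.3, 30.6 and 35.7% in the mutant libraries and 32.9 and 28.2% in wild type. The shares of each gene overlap between the genotypes. In all 5 libraries FZD2 had the larger share and FZD6 the next. FZD3 remained a minor receptor transcript, at 0.728 to 0.854% in the mutant libraries and 0.370 and 0.270% in wild type.

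The co-receptors parted. LRP5 had 30.6, 33.7 and 24.9 CPM in clone 2 and clone 6 replicates 1 and 2, against 51.3 and 43.9 CPM in wild-type replicates 1 and 2. Each mutant library was below both wild-type libraries, with means of 29.7 ± 4.44 CPM (SD, n = 3) and 47.6 ± 5.29 CPM (SD, n = 2) in mutant and wild type (log2 fold change -0.68, SE 0.152, adjusted p = 0.0263). LRP5 was not called once wild-type replicate 1 was left out (adjusted p = 0.213), nor without wild-type replicate 2 (0.0970) or clone 2 (0.0729). LRP6 had 111, 115 and 97.9 CPM in the mutant libraries, against 115 and 101 CPM in wild type, with a 95% interval of the log2 fold change from -0.35 to 0.35. The ratio of LRP6 to LRP5 per kb was 2.17, 2.04 and 2.34 in the mutant libraries, against 1.33 and 1.37 in wild type.

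Of the secreted antagonists, DKK1 and DKK3 fell and SFRP4 rose. DKK1, which removes LRP5 and LRP6 from signalling and is itself a target of beta-catenin, had 5.61, 4.84 and 7.73 CPM in clone 2 and clone 6 replicates 1 and 2, against 11.7 and 20.3 CPM in wild type. All mutant values were below both wild-type values, which differed widely from each other (log2 fold change -1.39, SE 0.291, adjusted p = 0.0217). With wild-type replicate 2 left out, the log2 fold change was -0.94 (adjusted p = 0.152), and the call was also lost without clone 2 (0.0666) or clone 6 replicate 1 (0.0682). DKK3, a divergent member of the family that is abundant in brain and does not block LRP6 as DKK1 does, had 45.9, 45 and 45.9 CPM in the mutant libraries, against 60.5 CPM in each wild-type library. The libraries within each genotype were nearly level and the fall was small, at 45.6 ± 0.539 CPM (SD, n = 3) against 60.5 CPM (n = 2) in wild type (log2 fold change -0.41, SE 0.0824, adjusted p = 0.0196). DKK3 was not called once wild-type replicate 1 was left out (adjusted p = 0.159), nor without wild-type replicate 2 (0.143), clone 2 (0.0889) or clone 6 replicate 1 (0.0822), with log2 fold changes of -0.41 to -0.40.

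SFRP4 had 37 reads in clone 2 and 44 and 56 reads in clone 6 replicates 1 and 2, against 5 and 11 reads in wild type. In scaled values these were 2.39, 3.38 and 3.49 CPM in the mutant libraries and 0.231 and 0.606 CPM in the wild-type libraries, so that the groups are far apart at a low level. Its log2 fold change was 2.90 (SE 0.433, adjusted p = 0.00723). With wild-type replicate 1 left out it was 2.33 and no longer called (adjusted p = 0.0671). SFRP1, which binds WNT ligands and was the main SFRP transcript, had 43.9, 47.4 and 60.3 CPM in the mutant libraries, against 57.7 and 61.7 CPM in wild type. Clone 6 replicate 2 lay within the wild-type range and the other mutant libraries below it (log2 fold change -0.24, SE 0.147, adjusted p = 0.304), and without clone 6 replicate 2 SFRP1 was called lower (log2 fold change -0.40, adjusted p = 0.00377). SFRP1 made up 91.4 to 93.3% of the SFRP level per kb in the mutant libraries and 98.5 and 99.5% in wild type, with SFRP4 as nearly all of the rest. Of the remaining antagonists, DKK2 had 1 to 3 reads in the mutant libraries and 1 and 0 in wild type, SFRP2 and DKK4 had 1 read each in wild-type replicate 2 and 0 elsewhere, and SFRP5 was at 0 reads throughout.

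Other genes of the pathway were read from lists chosen with earlier results of these data known. Among 18 genes of WNT secretion and extracellular cofactors, 4 were tested and 0 were called by edgeR, while DESeq2 called 1. WLS, the carrier of WNT proteins to the cell surface, had 121, 121 and 116 CPM in clone 2 and clone 6 replicates 1 and 2, against 97.7 and 97.9 CPM in wild type (log2 fold change 0.29, SE 0.0804, adjusted p = 0.0528). RSPO1, RSPO2, RSPO3 and RSPO4, which strengthen WNT signals, were at 0 reads in every library. Of 10 tested genes of further receptors and receptor turnover, 1 rose and 2 fell (median log2 fold change 0.01), against 18.4% called among all genes tested. ROR1, a WNT5A receptor, had 9.87, 10.8 and 6.42 CPM in the mutant libraries, against 2.27 and 2.04 CPM in wild type (log2 fold change 2.06, SE 0.280, adjusted p = 0.00530). The R-spondin receptor LGR4 (log2 fold change -0.76, adjusted p = 0.00367) and the DKK1 receptor KREMEN1 (-0.94, adjusted p = 0.0199) fell. ROR2, the other ROR receptor, had 37.3, 37.9 and 40.0 CPM in the mutant libraries and 36.2 and 36 CPM in wild type. Without wild-type replicate 1, LGR4 (adjusted p = 0.0576), ROR1 (0.0646) and KREMEN1 (0.174) were no longer called, nor were ROR1 (0.0635) and KREMEN1 (0.0764) without wild-type replicate 2 or KREMEN1 without clone 2 (0.0540) or clone 6 replicate 1 (0.0521).

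Of 23 tested cytoplasmic and nuclear genes of the pathway, 2 rose and 3 fell (median log2 fold change 0.03), which is near the 18.4% called among all genes tested. The co-repressor TLE4 had 121, 121 and 91.9 CPM in clone 2 and clone 6 replicates 1 and 2, against 45.7 and 52.2 CPM in wild type (log2 fold change 1.19, adjusted p = 0.00436). CTNNBIP1, which keeps beta-catenin from TCF factors, also rose (log2 fold change 0.67, adjusted p = 0.0180). The co-repressor TLE3 (log2 fold change -1.19, adjusted p = 0.00877) and the beta-catenin co-activator PYGO1 (-1.27, adjusted p = 0.00662) fell. The co-activator BCL9L, named after its values were seen, fell as well (log2 fold change -1.18, adjusted p = 0.0469). Beta-catenin itself, CTNNB1, also named after its values were seen, had 578, 555 and 572 CPM in the mutant libraries, against 608 and 606 CPM in wild type (log2 fold change -0.09, SE 0.0785, adjusted p = 0.450). Without wild-type replicate 1 none of the 5 was called (adjusted p = 0.0674 for TLE4, 0.151 for CTNNBIP1, 0.0720 for TLE3, 0.0813 for PYGO1 and 0.263 for BCL9L). Without wild-type replicate 2 the calls of PYGO1 (adjusted p = 0.0534), CTNNBIP1 (0.119) and BCL9L (0.163) were lost, and those of CTNNBIP1 and BCL9L also without clone 2 (0.0590 and 0.0817) or clone 6 replicate 1 (0.0682 and 0.0600).

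Of 10 tested target genes of beta-catenin, 1 fell and 0 rose (median log2 fold change -0.20), where 10.2% of all genes tested fell and 8.27% rose. The gene that fell was TBX3, a transcription factor, with 4.52, 4.76 and 3.62 CPM in clone 2 and clone 6 replicates 1 and 2, against 44.3 and 50.0 CPM in wild type (log2 fold change -3.46, SE 0.153, adjusted p = 0.000331). TBX3 was called without any 1 of the libraries (adjusted p = 3.21e-07 to 0.00798). AXIN2, the most widely used target and a feedback inhibitor, was near the detection limit, with 12, 12 and 3 reads in the mutant libraries and 22 and 9 reads in wild type (log2 fold change -0.32, SE 0.630, adjusted p = 0.760). The other tested targets, named after their values were seen, were not called and went both ways. RNF43 (log2 fold change 2.17), MYC (0.83), BAMBI (0.27) and ZNRF3 (0.13) lay higher in the mutant clones. TNFRSF19 (-0.58), CCND1 (-0.36), CD44 (-0.22) and TCF7 (-0.17) lay lower. MYC had 63.9, 57.3 and 195 CPM in clone 2 and clone 6 replicates 1 and 2, against 41.5 and 77.3 CPM in wild type.

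Of 15 planar polarity genes, all of them tested, 5 rose and 2 fell (median log2 fold change 0.31), where 8.27% of all genes tested rose and 10.2% fell. FZD3 and FZD6 are 2 of the 5. PRICKLE1, a cytoplasmic polarity protein, had 15.7, 13.3 and 13.8 CPM in clone 2 and clone 6 replicates 1 and 2, against 3.10 and 3.64 CPM in wild type (log2 fold change 2.08, SE 0.170, adjusted p = 0.00103). DAAM2, a formin that binds Dishevelled, had 29.2, 26.9 and 18.3 CPM in the mutant libraries, against 5.27 and 4.52 CPM in wild type (log2 fold change 2.33, SE 0.244, adjusted p = 0.00234). PRICKLE1 and DAAM2 were called without any 1 of the 5 libraries. The polarity cadherin CELSR1 fell (log2 fold change -0.80, adjusted p = 0.0138). Named after their values were seen, CELSR3 rose (log2 fold change 1.02, adjusted p = 0.0139) and the membrane protein VANGL2 fell (-0.98, adjusted p = 0.0481). CELSR1 was not called with wild-type replicate 1 (adjusted p = 0.144) or wild-type replicate 2 (0.0645) left out or without clone 6 replicate 1 (0.0517), and CELSR3 not without wild-type replicate 2 (0.0816). VANGL2 kept its call only without clone 6 replicate 2 (adjusted p = 0.00307), with 0.0663 to 0.283 without another library.

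**Figure D4:**
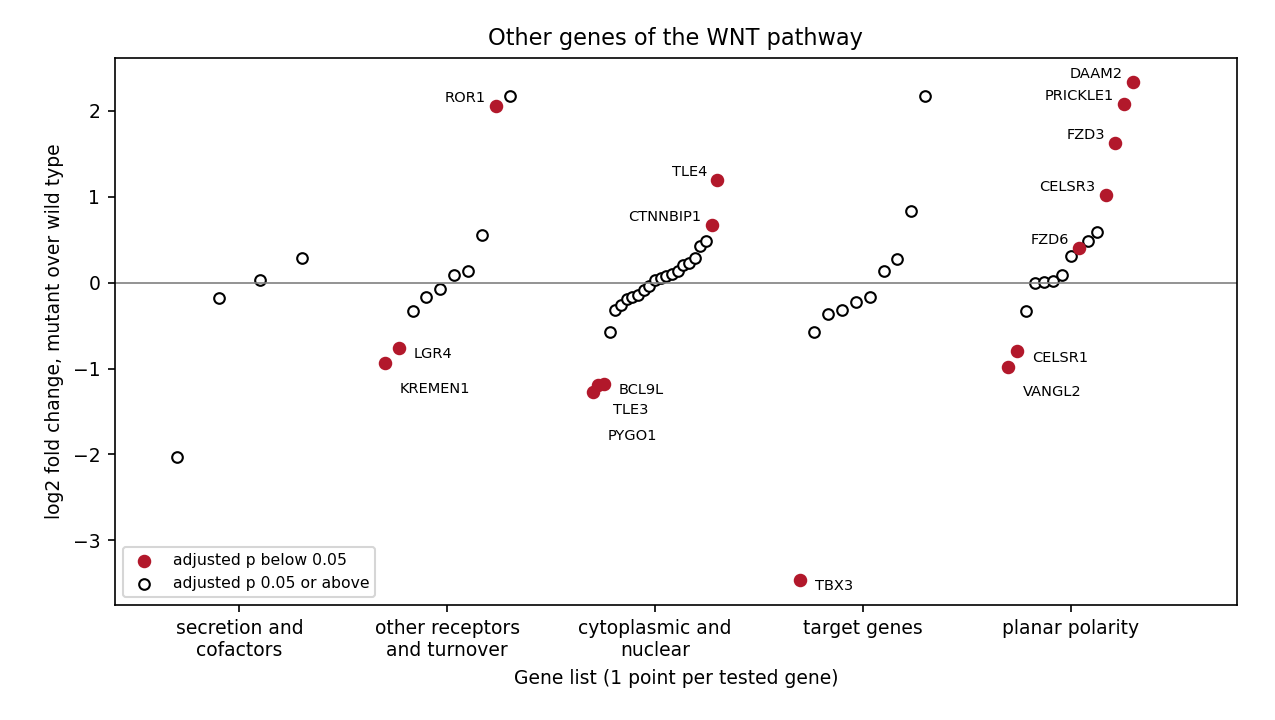
Log2 fold changes, mutant over wild type, of the tested genes of 5 lists of the WNT pathway, 1 point per gene, filled and named for an adjusted p below 0.05. Of the target genes 1 of 10 passed the test (TBX3, -3.46), and of the planar polarity genes 7 of 15, FZD3 and FZD6 among them. Of all genes tested, 18.4% passed.

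Markers of other cell types also moved between the genotypes, and those that did are named here after their values were seen. Among fibroblast and pericyte markers, 1 of 11 tested rose while 6 fell (median log2 fold change -1.25). Of all genes tested, 8.27% rose and 10.2% fell, with a median log2 fold change of 0.022. The pericyte channel genes KCNJ8 and ABCC9 had 0.374 to 0.839 and 0.0645 to 0.125 CPM in the mutant libraries, against 23.8 and 27.7 CPM (KCNJ8) and 9.44 and 14.5 CPM (ABCC9) in wild type. FAP (log2 fold change -2.72), the collagen gene COL3A1 (-2.28), the smooth muscle actin gene ACTA2 (-1.44) and the growth factor receptor gene PDGFRB (-1.25) fell too. The pericyte marker RGS5 rose (log2 fold change 3.06), with 65.1, 65.1 and 25.9 CPM in clone 2 and clone 6 replicates 1 and 2, against 6.57 and 5.84 CPM in wild type. With wild-type replicate 1 left out, COL3A1 (adjusted p = 0.0705), RGS5 (0.0807), ACTA2 (0.239) and PDGFRB (0.260) were not called. With wild-type replicate 2 left out, RGS5 (0.0782), ACTA2 (0.190) and PDGFRB (0.158) were not, and ACTA2 and PDGFRB were not called without clone 2 (0.0671 and 0.0649) or clone 6 replicate 1 (0.0958 and 0.0699) either. The summed level of the 14 listed was 763 to 2040 CPM in the mutant libraries, against 2240 and 2470 CPM in wild type. COL1A1, a collagen chain that was not called, made up most of this sum, with 1610, 1650 and 510 CPM in clone 2 and clone 6 replicates 1 and 2, against 1900 and 1690 CPM in wild type. PDGFRA, also not called, lay higher in the mutant clones (log2 fold change 2.05, adjusted p = 0.0578 in edgeR's quasi-likelihood test). It had 5.29, 5.53 and 1.5 CPM in clone 2 and clone 6 replicates 1 and 2, against 0.971 and 0.992 CPM in wild type. THY1 (log2 fold change -0.41) and CSPG4 (-0.19) were not called either. Their mutant libraries had 51.4 to 78.1 and 137 to 165 CPM, against 85 and 96.8 (THY1) and 179 and 174 CPM (CSPG4) in wild type. The fibroblast markers COL1A2, DCN and LUM were at 0.581 CPM or below in each library.

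Of 7 tested astrocyte markers 2 rose and 2 fell (median log2 fold change -0.53), where 8.27% of all genes tested rose and 10.2% fell. GJA1 (log2 fold change 1.26) and CLU (1.68, with 92.3 to 130 CPM in the mutant and 33.9 and 38.0 CPM in the wild-type libraries) rose, and they carried the summed level of 529 to 590 CPM in the mutant and 286 and 298 CPM in the wild-type libraries. The glutamine synthetase gene GLUL (-1.05) and the transcription factor gene NFIA (-2.78) fell. Of 4 tested neuron markers, GAD1 (log2 fold change 1.28) and INA (3.05) rose and 0 fell, against 8.27 and 10.2% of all genes tested. The other tested neuron markers, TUBB3 (log2 fold change -0.23) and SNAP25 (0.16), were not called. The summed neuron level was 22.5 to 24.6 CPM in the mutant and 10.4 and 10.9 CPM in the wild-type libraries, and NEFL and SLC17A6 were at 0 reads throughout. The part of these markers in the changes of the WNT pathway genes was not tested.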

How the data were processed

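Counts of reads per gene were deposited by the authors as whole numbers, not normalized, in 1 file per library. Trimmomatic, STAR, HTSeq and build hg19 (GRCh37) are named, with no version, in the submitters' processing notes. Which annotation was used, and whether counting used strand, was not found in the labels or files. Of 63677 genes, 5772 had an empty value and were left out as not measured. Members were chosen by symbol and matched by gene identifier. The members, lists and tests were chosen with earlier results of these data known. The tests used edgeR 4.0.16 in R 4.3.3, with TMM scaling, the default filterByExpr filter by genotype (15500 genes kept), the quasi-likelihood F test and Benjamini-Hochberg adjustment over all genes tested. SE is the log2 fold change divided by the square root of F, and 95% intervals use 3 residual degrees of freedom. Clone 6 was set against clone 2 in a fit with 3 groups. DESeq2 1.42.0 was an alternative, as were other scaling, filters, a replicate block, a ribosomal RNA covariate and left-out libraries. CPM are on TMM-scaled library sizes, and CPM per kb divide by the union of exons in GENCODE 29 (GRCh38), which need not be the models the authors counted. These intervals carry the spread between libraries, while the detection floor of 3 reads covers counting error only. Every member was described, with up to 4 called genes of lowest adjusted p per pathway list. Some exceptions, and the called genes of the marker lists, are named in the text as chosen after their values were seen. The text also names list genes outside this rule without that mark. These are WLS, RSPO1 to RSPO4, ROR2, AXIN2 and the uncalled marker genes with reads, except the neuron markers SYT1 and RBFOX3, which are not described. The procedure was tested on simulated data in which libraries were independent and shared the same spread. That setting does not hold a pair of nearly identical libraries as found here.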

Additional observations from a re-analysis of the deposited data

How the results depend on the processing

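WNT5A and FZD3 kept their direction and call under all 12 alternatives. DESeq2, upper-quartile scaling and both filters left the counts of WNT pathway genes called within 1.5 times of 8, and the median change of all genes stayed within 0.059 of 0 under every alternative. Leaving out 1 library gave 3 to 10 such genes called (1 to 5 higher, 1 to 5 lower), and 500 to 5919 of all genes. The 5919 came without clone 6 replicate 2, where the mutant samples were the 2 nearly identical libraries. Summing these into 1 library gave 3 (2 higher, 1 lower) and 1520 of all genes, and lost the calls of WNT7B, FZD6, LRP5, DKK1 and DKK3. A ribosomal RNA covariate gave 5 (2 higher) and lost WNT7B, FZD6 and DKK3, with log2 fold changes of 2.59, 0.40 and -0.41, against 2.58, 0.40 and -0.41 as reported. The cause of these losses was not tested.

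For clone 6 against clone 2, leaving out 1 library gave 0 to 2 of the WNT pathway genes and 0 to 881 of all genes, DESeq2 2 and no filter 99 of all genes, against 0 as reported. Lists under left-out libraries, an alternative chosen after seeing the data, held 0 to 2 called genes for secretion (1 with DESeq2), 0 to 6 for receptors and turnover, 0 to 10 for cytoplasmic and nuclear genes, 1 to 3 for targets and 3 to 10 for planar polarity. The highest count of each of these lists came without clone 6 replicate 2, where 5919 of all 15254 genes tested were called. Without clone 2, 1481 of 15277 were called, and without clone 6 replicate 1, 1504 of 15300. With the replicate number as a block, 9 of the WNT pathway genes were called (5 higher) and 4436 of all genes, and WNT2B was called (adjusted p = 0.0197). The labels do not tie same-numbered libraries together, and the correlation of their differences between wild type and clone 6 was 0.20 over genes, with only 2 pairs.

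Directions turned for genes near 0. LRP6 (0.00 as reported) was -0.01 with DESeq2, -0.02 without a filter, 0.00 but below 0 with the 1 CPM filter, -0.03 with the block, -0.04 with the summed library and -0.09 to 0.10 over left-out libraries (below 0 for wild-type replicate 2, clone 2 and clone 6 replicate 1). FZD4 (0.06) was -0.04 with the block, -0.05 with the summed library and -0.07 to 0.25 over left-out libraries (below 0 for the same 3). WNT5B (0.20) was -0.19 to 0.74 over left-out libraries (below 0 for wild-type replicate 1 and clone 6 replicate 2), FZD7 (-0.08) was 0.01 without clone 6 replicate 2, and FZD9 (0.08) was -0.11 without clone 2. At this depth the 17 genes under the filter were not tested and cannot show a fall or a small rise.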

Other observations

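Several feedback and target genes of the beta-catenin branch were too low to be tested, and their reads are given as values. LEF1, a nuclear partner of beta-catenin, had 2 reads in clone 2 and 1 read in each clone 6 library, against 9 reads in each wild-type library. SP5, a transcription factor downstream of WNT signals, had 6, 11 and 5 reads in clone 2 and clone 6 replicates 1 and 2, against 2 reads in each wild-type library. NKD1, a Dishevelled inhibitor, had 0, 1 and 0 reads in the mutant libraries and 1 and 5 reads in wild type. LGR5 had 2, 1 and 2 reads in the mutant libraries and 0 in both wild-type libraries. RNF43, a ligase that removes Frizzled receptors, was tested and had 16, 14 and 6 reads in the mutant libraries, against 5 and 2 reads in wild type (log2 fold change 2.17, SE 0.661, adjusted p = 0.0666 in edgeR's quasi-likelihood test). FRZB, a secreted antagonist related to the SFRP genes and outside the symbol rule, had 4, 0 and 10 reads in the mutant libraries, against 35 and 17 reads in wild type (log2 fold change -2.03, SE 0.747, adjusted p = 0.109). These genes were named after their values were seen.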
